A study of Mus musculus with 12 samples.

Results

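The genes described here are 5 probes of a 773-probe mouse immune exhaustion panel, selected by their symbols: the cytokine genes Ifng, Tnf and Osm, and the killing genes Prf1 and Nkg7. All 5 were read in all 12 samples. The rule uses symbols and no threshold on a value, though earlier results of these data were known when it was written. The samples were CD8+ T cells sorted from MC38 tumours, a colon carcinoma line grown in C57BL/6J mice, after enrichment on CD45. The 4 groups of 3 samples carry the names SRT, CRT, SRT-like and Nontreated. SRT, CRT and SRT-like are modes of radiotherapy that the labels do not spell out, and Nontreated is the control. Per the labels' protocols, radiotherapy was 20 Gy, begun at a tumour size of 40 to 100 mm3. The time between irradiation and sorting is not given in the sources used here, nor are the age of the mice and the number of mice behind each group. If replicates share mice, the spread that the p-values below rest on is partly technical.

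CD8+ T cells act on target cells in 2 ways. They secrete cytokines, of which interferon gamma (Ifng) raises antigen presentation and chemokines, tumour necrosis factor (Tnf) signals through NF-κB to inflammation or death, and oncostatin M (Osm) is a cytokine of the interleukin-6 family that signals through gp130 to STAT3. They also release cytotoxic granules, in which perforin (Prf1) opens pores for granzymes, and NKG7, a granule membrane protein, is needed in mice for efficient granule release. In T cells Ifng and Tnf are transcribed soon after the antigen receptor is engaged, and NFAT is among the factors that bind their promoters.

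The promoters of Tnf and Ifng are shown because Tnf varied most between the samples and Ifng is its companion as an early receptor-driven gene. Each sequence is the 250 bases before the RefSeq transcription start (GRCm38.p6), 5′ to 3′ on the strand of the gene, with capitals for the letters GGAAA or their reverse TTTCC, the core of NFAT sites, and for TATAAA. The Tnf window is chr17:35202008-35202257 on the minus strand, and the Ifng window is chr10:118440796-118441045 on the plus strand.
Tnf: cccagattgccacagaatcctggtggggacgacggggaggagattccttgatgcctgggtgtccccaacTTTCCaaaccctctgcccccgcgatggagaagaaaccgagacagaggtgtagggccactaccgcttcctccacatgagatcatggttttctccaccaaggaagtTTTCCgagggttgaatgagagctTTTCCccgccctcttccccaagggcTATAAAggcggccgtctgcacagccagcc
Ifng: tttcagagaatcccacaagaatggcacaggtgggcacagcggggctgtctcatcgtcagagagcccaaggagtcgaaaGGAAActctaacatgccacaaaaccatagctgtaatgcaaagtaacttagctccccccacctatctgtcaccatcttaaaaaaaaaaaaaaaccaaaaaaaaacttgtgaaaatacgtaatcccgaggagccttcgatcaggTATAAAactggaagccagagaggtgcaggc
The Tnf window held GGAAA 3 times, each on the opposite strand, at 181 to 177, 77 to 73 and 54 to 50 bases before the start. The Ifng window held it once, 172 to 168 bases before the start, and both windows held TATAAA within 30 bases of the start. GGAAA was present on either strand in 55.6% of 32851 promoter windows of the same length, 3 or more times in 6.39%, and TATAAA in 12.4%. The AP-1 letters TGACTCA and the CRE letters TGACGTCA, present in 4.46% and 1.55% of windows on either strand, had no match in either window. The CRE half-site TGACG, present in 17.8% of windows, had no match in the Tnf window. It matched once in the Ifng window, on the opposite strand, 197 to 193 bases before the start. These matches describe letters only and do not say that a factor binds there.

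Values are log2 of normalized molecule counts, as deposited. Recovered totals were 118694 to 467904 molecules per sample, the lowest in Nontreated replicate 3. Background was taken from 26 probes of genes of other tissues or of a virus, and a probe was called above background where it exceeded their mean plus 2 SD in that sample. The 6 measured CD8 T cell markers, including Cd3e, Cd8a and Cd8b1, were above background in all 12 samples. Their summed scaled counts were 11722 to 14800 in SRT, 12203 to 14607 in CRT, 13478 to 15474 in SRT-like and 11102 to 14398 in Nontreated. Among markers of other leukocytes, Cd4, Csf1r, Cd14, Cd163, Csf3r and Ms4a1 were above background in 0 of 12, while Cd68, Tyrobp, Ccr2, H2-Aa, Itgax and Ighm were above it in 12 of 12, H2-Ab1 in 11 and H2-Eb1 in 10. Of the CD4 T cell list, 4 of 4 measured, Ctla4 was above background in 12 of 12, Cd40lg in 9 and Foxp3 in 3. The list summed to 1438 to 2016 in SRT, 1764 to 2428 in CRT, 1839 to 1987 in SRT-like and 1794 to 1923 in Nontreated, mostly from Ctla4. The macrophage and monocyte list, with 7 of 11 genes measured, 3 of them above background in all 12 samples and 3 in none, summed to 467 to 662 in SRT, 526 to 799 in CRT, 460 to 517 in SRT-like and 394 to 463 in Nontreated. Within it, Ccr2, which T cells can also express, averaged 8.46 in CRT, 8.33 in SRT-like and 8.27 in SRT, against 7.83 in Nontreated, and Tyrobp averaged 6.77 in CRT, 5.39 in SRT-like and 6.26 in SRT, against 6.15 in Nontreated (log2). The dendritic cell list, 5 of 9 measured, summed to 527 to 1116 in SRT, 252 to 1313 in CRT, 340 to 452 in SRT-like and 447 to 886 in Nontreated. The B cell list, 4 of 6 measured, summed to 229 to 296 in SRT, 211 to 295 in CRT, 134 to 198 in SRT-like and 212 to 278 in Nontreated. Macrophages and dendritic cells can also transcribe Tnf and Osm, and the part of these cells in the results was not tested. Of the natural killer cell list, 4 of 8 genes were measured. They summed to 4930 to 6865 in SRT, 5797 to 7404 in CRT, 5663 to 6832 in SRT-like and 5153 to 7405 in Nontreated, nearly all from Klrd1 and Klrk1, which CD8+ T cells share. Ncr1, the defining gene of natural killer cells, was above background in 2 of 12 samples.

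Of the 5 genes, Osm was higher in the 9 irradiated samples than in Nontreated by the test over all probes, just under the threshold. Osm was above background in 7 of 12 samples. Its call was lost in 7 of 9 other processings and in 11 of 12 fits with 1 sample left out. Tnf had a larger mean difference that did not pass. Ifng, Prf1 and Nkg7 had small differences within the spread between samples. Each gene was tested with limma on all 773 probes, and called where the Benjamini-Hochberg adjusted p over all of them was under 0.05. The 9 irradiated samples entered as the mean of the 3 modes. In bulk samples such as these, fewer cells transcribing a gene and less RNA per cell cannot be told apart.

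**Figure D1:**
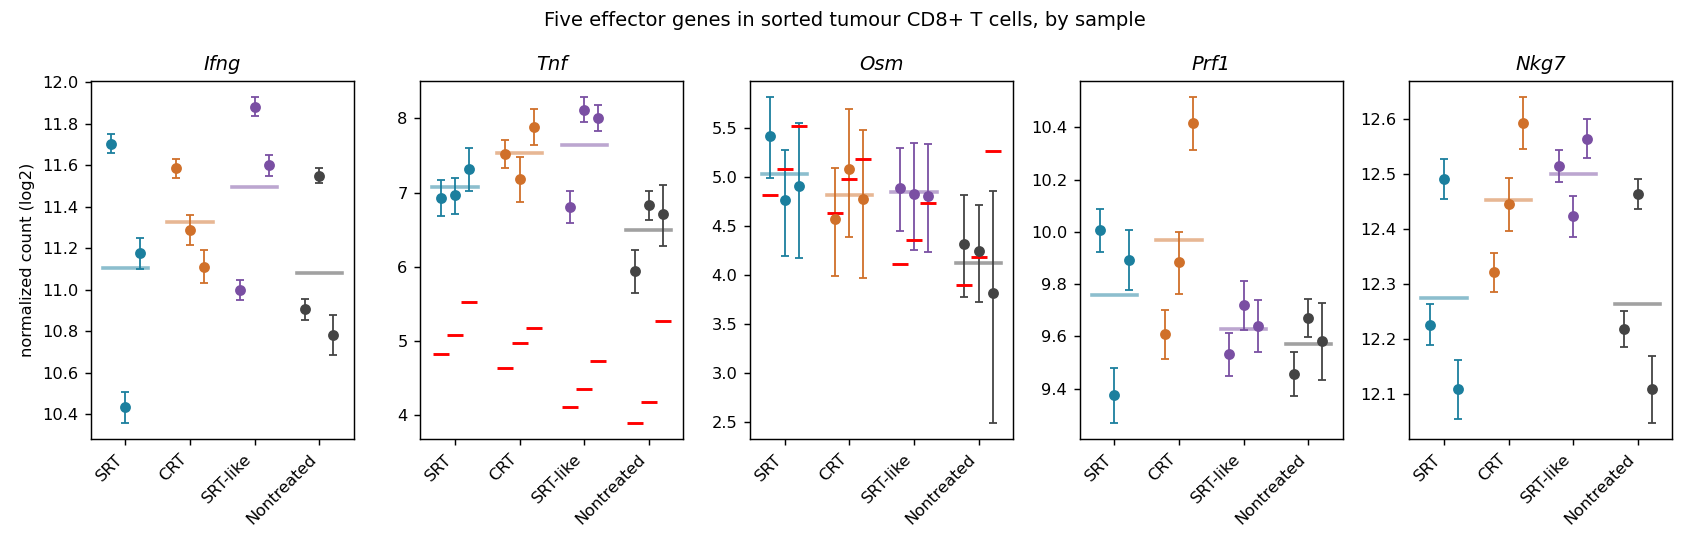
Normalized log2 level of each of the 5 genes (vertical axis, one panel per gene) in the samples of SRT, CRT, SRT-like and Nontreated, left to right. Points are samples with 95% counting intervals, horizontal bars are group means, and red dashes in the Tnf and Osm panels mark each sample's background threshold. All 9 irradiated samples lie above the 3 Nontreated samples for Osm and 8 of 9 for Tnf, while Ifng, Prf1 and Nkg7 overlap.

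Ifng was at 11.70, 10.43 and 11.18 in SRT, 11.59, 11.29 and 11.11 in CRT, 11.00, 11.88 and 11.60 in SRT-like, and 10.91, 11.55 and 10.78 in Nontreated (log2, replicates 1 to 3). The groups overlapped, and the lowest and the highest sample were SRT replicate 2 and SRT-like replicate 2. Means were 11.49 ± 0.45 in SRT-like, 11.33 ± 0.24 in CRT, 11.10 ± 0.64 in SRT and 11.08 ± 0.41 in Nontreated (SD, n = 3 each), and no neighbours in this order differed beyond their spread. All irradiated minus Nontreated was 0.23 ± 0.29 (SE; 95% interval -0.40 to 0.86; adjusted p = 0.747, limma), close to the median of all probes, 0.22. The median difference of probes above background in all 12 samples was 0.09. Of the 9 irradiated samples, 4 lay above the highest Nontreated sample and 1 below the lowest. The gene rested on 878 to 5715 molecules per sample. Its within-group SD of 0.46 was larger than that of 92.4% of the 394 probes above background in all 12 samples, whose median was 0.24.

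Tnf was at 6.93, 6.96 and 7.31 in SRT, 7.53, 7.18 and 7.89 in CRT, 6.81, 8.12 and 8.01 in SRT-like, and 5.95, 6.83 and 6.71 in Nontreated (log2). Every irradiated sample except SRT-like replicate 1 lay above all Nontreated samples, and that sample fell just under Nontreated replicate 2. Group means were 7.65 ± 0.73 in SRT-like, 7.53 ± 0.35 in CRT, 7.07 ± 0.21 in SRT and 6.50 ± 0.48 in Nontreated (SD, n = 3 each). SRT-like overlapped CRT and CRT overlapped SRT in this order, while SRT and Nontreated did not overlap. The normalized level spanned 4.50-fold over the 12 samples, from Nontreated replicate 1 to SRT-like replicate 2, the widest span of the 5 genes. Tnf was above background in all 12 samples, on 52 to 294 molecules before normalization.

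Against Nontreated, Tnf differed by 1.15 ± 0.36 in SRT-like (adjusted p = 0.255, limma), 1.04 ± 0.36 in CRT (0.195) and 0.57 ± 0.36 in SRT (0.540), as log2 differences with SE. For the 9 irradiated samples the difference was 0.92 ± 0.30, a 1.89-fold higher level (95% interval 1.20 to 2.99; adjusted p = 0.159, limma; unadjusted p = 0.0107). None of these passed. With 1 sample left out, the difference for all irradiated samples passed in 1 of 12 fits, without SRT-like replicate 1, the irradiated sample that overlapped Nontreated (1.06, adjusted p = 0.0395, limma). It did not pass in the other 11, and without Nontreated replicate 1 it was 0.65 with an adjusted p of 0.535 (limma). Within the run of sample numbers 1 to 5, the SRT mean was above Nontreated replicate 1 by 1.00 and the CRT mean by 1.41, and within numbers 6 to 9 SRT replicate 3 was above the Nontreated mean by 0.55 and CRT replicate 3 by 1.12. With these runs as a block, a comparison without SRT-like, CRT minus Nontreated was 1.23 and passed (adjusted p = 0.0140, limma). In that contrast 29 probes of the panel passed. In the same fit, Tnf in SRT minus Nontreated was 0.77 and did not pass (adjusted p = 0.125, limma). SRT-like holds numbers 10 to 12 alone, so its mode and its run cannot be told apart.

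Osm was at 5.41, 4.76 and 4.90 in SRT, 4.57, 5.08 and 4.78 in CRT, 4.89, 4.83 and 4.81 in SRT-like, and 4.32, 4.24 and 3.81 in Nontreated (log2). All 9 irradiated samples lay above all 3 Nontreated samples, which was so for 36 of 773 probes (4.66%). The means were 5.03 ± 0.34 in SRT, 4.84 ± 0.04 in SRT-like, 4.81 ± 0.26 in CRT and 4.12 ± 0.27 in Nontreated (SD, n = 3 each), and the 3 modes overlapped one another. All irradiated minus Nontreated was 0.77 ± 0.18, a 1.70-fold higher level (95% interval 1.29 to 2.25), with an adjusted p of 0.0491 by limma. In the fit of all 12 samples to the values as deposited, without a block, it was the only 1 of the 5 genes to pass in any of the 7 comparisons, in a contrast where 24 of 773 probes (3.1%) passed. By single mode, Osm was above Nontreated by 0.90 ± 0.22 in SRT (adjusted p = 0.184, limma), 0.72 ± 0.22 in SRT-like (0.255) and 0.69 ± 0.22 in CRT (0.148).

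The Osm signal was faint. It rested on 51, 30 and 19 molecules in SRT, 29, 21 and 16 in CRT, 48, 30 and 29 in SRT-like, and 32, 36 and 7 in Nontreated. It was above background in 1 of 3 SRT, 1 of 3 CRT, 3 of 3 SRT-like and 2 of 3 Nontreated samples. The 95% counting interval of Nontreated replicate 3 alone ran from 2.50 to 4.85 on the log2 scale, which takes in the mean of each irradiated mode except SRT. The background moved between the groups too, but not alike in the 3 modes. The 26 background probes had a median difference of 0.42 between all irradiated and Nontreated samples, 22 of the 26 were positive, and 3 had a difference at least as large as that of Osm. With each sample's background mean subtracted, Osm was at 33.2, 14.7 and 15.9 scaled counts in SRT, 14.2, 19.9 and 13.2 in CRT, 21.7, 19.6 and 17.99 in SRT-like, and 13.8, 12.8 and -1.31 in Nontreated. CRT replicate 3 then lay below Nontreated replicate 1, so the groups overlapped. The part of the background in the Osm difference was not tested further. The call was kept without SRT replicate 2 (adjusted p = 0.0450, limma) and lost without any other single sample of the 12, with an adjusted p of up to 0.134. It was also lost under median centring, where the difference was 0.51 with an adjusted p of 0.307 by limma.

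Relative to the mean of 5 T cell probes of the same sample (the Cd3 and Cd8 genes), Osm was at -5.65, -6.54 and -6.03 in SRT, -6.52, -6.10 and -6.18 in CRT, -6.50, -6.33 and -6.36 in SRT-like, and -6.88, -7.00 and -7.00 in Nontreated (log2 difference). On this scale too, all 9 irradiated samples lay above the 3 Nontreated samples. The share of the panel that did so on this scale is not given here. The scale does not subtract the background, and with the background mean subtracted the groups overlapped, as described above. On the T cell scale the difference was 0.71 and did not pass, with an adjusted p of 0.173 by limma.

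Prf1 was at 10.01, 9.38 and 9.89 in SRT, 9.61, 9.88 and 10.41 in CRT, 9.53, 9.72 and 9.64 in SRT-like, and 9.46, 9.67 and 9.58 in Nontreated (log2). CRT replicate 3 was the highest and SRT replicate 2 the lowest, below all Nontreated samples. Means were 9.97 ± 0.41 in CRT, 9.76 ± 0.34 in SRT, 9.63 ± 0.09 in SRT-like and 9.57 ± 0.11 in Nontreated (SD, n = 3 each), and no neighbours in this order differed beyond their spread. The largest difference from Nontreated was 0.40 ± 0.23 in CRT (adjusted p = 0.459, limma). For all irradiated samples it was 0.22 ± 0.19 (95% interval -0.21 to 0.64; adjusted p = 0.650, limma), equal at this precision to the median of all probes. The median of probes above background in all 12 samples was lower, 0.09.

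Nkg7 was at 12.23, 12.49 and 12.11 in SRT, 12.32, 12.45 and 12.59 in CRT, 12.52, 12.42 and 12.56 in SRT-like, and 12.22, 12.46 and 12.11 in Nontreated (log2). It was the steadiest of the 5 genes, with a span of 1.40-fold over the 12 samples and a within-group SD of 0.15, and the groups overlapped. Means were 12.50 ± 0.07 in SRT-like, 12.45 ± 0.14 in CRT, 12.28 ± 0.20 in SRT and 12.26 ± 0.18 in Nontreated (SD, n = 3 each), and no neighbours in this order differed beyond their spread. All irradiated minus Nontreated was 0.15 ± 0.14 (95% interval -0.16 to 0.45; adjusted p = 0.672, limma). That was below the median of all probes, 0.22, but above the median of probes above background in all 12 samples, 0.09. The interval holds any change of the 9 irradiated samples between 0.90-fold and 1.37-fold. With every sample centred on its median, this difference was -0.11, that of Ifng -0.03 and that of Prf1 -0.04, so the direction of these 3 depended on the scaling.

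**Figure D2:**
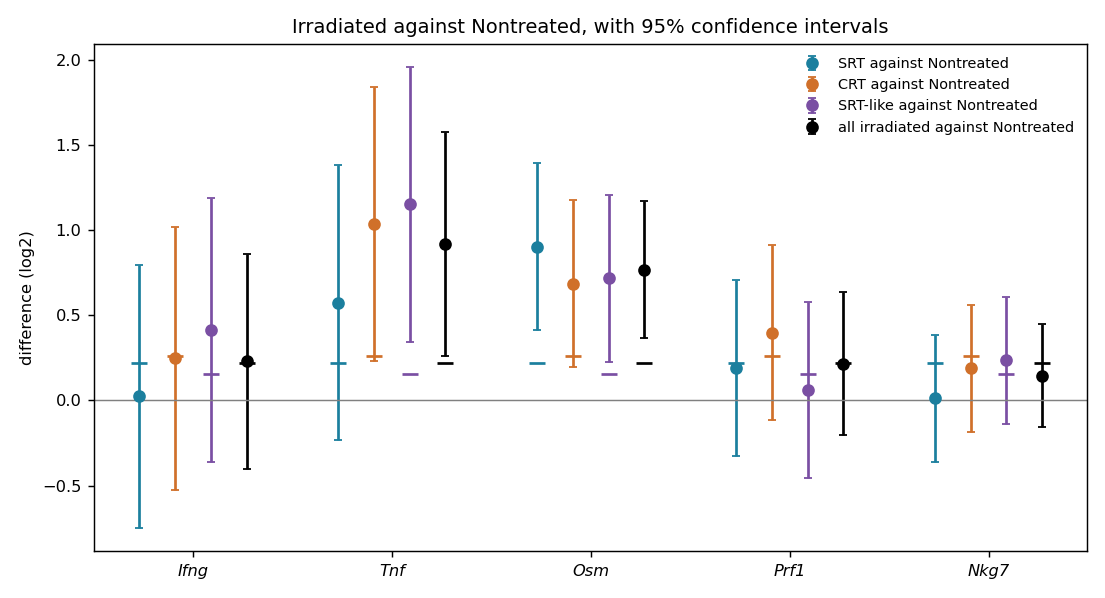
Log2 difference from Nontreated of each of the 5 genes for the 3 modes and for all irradiated samples, as points with 95% intervals from limma. Short dashes mark the median of all 773 probes in the same comparison. The intervals of Osm lie above 0 in every comparison and those of Tnf in all but SRT, while those of Ifng, Prf1 and Nkg7 cross 0.

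By mode, the 5 genes were read against the share of the panel that behaved likewise. For SRT, 0 of 5 passed by limma and by limma voom, as did 0% of the panel by limma. At an unadjusted p under 0.05 there were 1 of 5, Osm, and 10.9% of the panel. Tnf and Osm, 2 of 5, lay above Nontreated without overlap, against 10.9% of the panel. For CRT, 0 of 5 passed by limma and by limma voom, against 3.1% of the panel by limma. Tnf and Osm, 2 of 5, had an unadjusted p under 0.05, against 15.4% of the panel, and the same 2 lay above without overlap, against 15.4%. For SRT-like, 0 of 5 passed by limma and by limma voom, against 0.647% of the panel by limma. Again 2 of 5 had an unadjusted p under 0.05, against 11.1% of the panel, and Osm alone lay above without overlap, against 13.2%. The 3 comparisons share the same Nontreated samples. With so few genes, these counts are a description.

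The modes were not told apart by any of the 5 genes. In the 15 tests of SRT against CRT, SRT-like against CRT and SRT-like against SRT, the groups overlapped each time, where 11.4%, 18.5% and 10.5% of the panel did not overlap, and the adjusted p ran from 0.641 to 0.978 (limma). None reached an unadjusted p under 0.05, by limma or by limma voom. In each of the 3 comparisons 0% of the panel passed, and 6.6%, 9.83% and 5.69% of it had an unadjusted p under 0.05. The widest difference was in Tnf, SRT-like minus SRT, at 0.58 ± 0.36 (95% interval -0.23 to 1.38), which leaves room for equal levels or for a difference of up to 2.61-fold. Prf1 in SRT-like minus CRT was -0.34 ± 0.23 (95% interval -0.85 to 0.18). The test over all 4 groups at once had an adjusted p of 0.217 for Osm and 0.335 for Tnf (limma F test), where 0% of the panel passed.

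Genes that act with the 5 were read from 6 lists, for all irradiated samples minus Nontreated. No measured gene of these lists passed in either direction in any comparison by limma. The median difference of all 773 probes was 0.22, and that of the probes above background in all 12 samples was 0.09. Under median centring, the setting given beside each list, the median of all probes was -0.04, and under scaling on T cell probes it was 0.16.

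Of the granule killing list, 13 of 20 genes were measured, and 13 of 13 had a positive difference, with a median of 0.42, while under median centring 7 of 13 were positive. Under limma voom 9 of 13 were positive, under quantile normalization 10 and under scaling on T cell probes 13. Gzmd had 0.91 ± 0.22 (adjusted p = 0.0509, limma), with all 9 irradiated samples above Nontreated, as for Gzmf and for 4.66% of the panel. Gzmf had 0.97 ± 0.35 (0.205), Gzmb, the granzyme that cleaves caspases, 0.86 ± 0.27 (0.153) and Gzme 0.73 ± 0.21 (0.123). By limma voom on the recovered counts, Gzmd passed, with 0.75 ± 0.18 and an adjusted p of 0.0364. Under median centring, quantile normalization and scaling on T cell probes, 0 of the 13 genes passed, Gzmd included. Gzmd, Gzme and Gzmf are close relatives in sequence, and whether their probes separate them was not tested. By mode, Gzmd averaged 9.26 both in SRT and in SRT-like and 8.39 in CRT, against 8.06 in Nontreated. Gzmb averaged 11.05 in CRT, 10.73 in SRT-like and 10.51 in SRT, against 9.90 in Nontreated (log2 means, n = 3 each). None of these differences between modes passed.

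Of the interferon gamma list, 12 of 16 genes were measured, 8 of 12 had a positive difference, and the median was 0.33 (0.07 under median centring). Cd274, which encodes PD-L1, had 0.62 ± 0.20 (adjusted p = 0.159, limma), and Gbp2, an interferon-induced GTPase, 0.54 ± 0.19 (0.205). In CRT alone, Gbp2 was at 0.92 ± 0.24 (adjusted p = 0.0710, limma) and lay above Nontreated without overlap, as did 15.4% of the panel. Ifng itself was at 0.25 ± 0.35 in CRT. Nos2, the inducible nitric oxide synthase, had 1.14 ± 0.40 but was above background in 0 of 12 samples.

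Of the TNF list, 7 of 15 genes were measured and 4 of 7 had a positive difference, with a median of 0.01 (-0.25 under median centring). Tnfrsf1a, a receptor of TNF, had 0.55 ± 0.21 (adjusted p = 0.228, limma), and Nfkb1, a subunit of NF-κB, had -0.33 ± 0.17 (0.426). Nfkbia and Tnfaip3, inhibitors that NF-κB induces, had 0.32 ± 0.24 and 0.15 ± 0.15. Nfkbia averaged 10.50 in SRT-like against 9.74 in Nontreated (adjusted p = 0.353, limma).

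Of the oncostatin M list, 9 of 11 genes were measured and 8 of 9 had a positive difference, with a median of 0.38 (0.12 under median centring). Only 4 of the 9 were above background in all 12 samples. Osmr, the receptor of oncostatin M, was above background in 0 of 12. Stat3 was the exception in direction, at -0.37 ± 0.13 (adjusted p = 0.205, limma), with 11.84 on average in irradiated and 12.21 in Nontreated samples and no overlap. All irradiated samples lay below Nontreated for 2 of 773 probes (0.259%). Lif, a related cytokine, had 0.56 ± 0.30 and Socs3, an inhibitor that STAT3 induces, 0.38 ± 0.22.

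The other cytokines and chemokines, 12 of 12 measured, had a median of 0.06 (-0.20 under median centring) and 7 of 12 positive differences. Csf2, which encodes GM-CSF, had 0.52 ± 0.29, Ccl4, a chemokine, 0.30 ± 0.35, Tgfb1 -0.36 ± 0.18 and Il13 -0.32 ± 0.27, the last above background in 4 of 12 samples. Of the transcription factor list, 13 of 17 were measured, with a median of 0.29 (0.03 under median centring) and 9 of 13 positive differences. Jun and Fos, subunits of AP-1, had 1.10 ± 0.34 (adjusted p = 0.153, limma) and 1.01 ± 0.35 (0.190). Prdm1, which encodes Blimp-1, had 0.45 ± 0.17 (0.222). Tox, a factor of exhausted T cells, had -0.45 ± 0.15 (0.189), with 7.18 on average in irradiated and 7.63 in Nontreated samples and no overlap. Such a downward separation held for 0.259% of the panel.

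The probes whose pattern over the 12 samples was most like each gene were found by Pearson's r among the probes above background in all 12 samples. They were the highest of 393 or 394 correlations each and share the scaling of a sample, so r is a description. For Tnf they were Cd69, an early activation marker (r = 0.88), Fos (0.85) and Jund (0.85). After removal of the group means, r was 0.72, 0.73 and 0.90, so these probes also moved with Tnf among samples of the same group. Cd69 was at 7.17, 7.36 and 8.10 in SRT, 7.99, 8.28 and 8.36 in CRT, 7.42, 8.20 and 8.55 in SRT-like, and 6.65, 7.44 and 6.59 in Nontreated (log2). SRT-like replicate 1, low for Tnf, was also the lowest SRT-like sample for Cd69, and Nontreated replicate 2, the highest Nontreated sample for Tnf, was the highest for Cd69. Other ranks differed. The lowest CRT sample was replicate 2 for Tnf and replicate 1 for Cd69, and the lowest Nontreated sample replicate 1 for Tnf and replicate 3 for Cd69. The highest SRT-like sample was replicate 2 for Tnf and replicate 3 for Cd69. Cd69 itself had 1.04 ± 0.29 for all irradiated samples (adjusted p = 0.104, limma).

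For Ifng the nearest probes were the chemokines Ccl3 (r = 0.87) and Ccl4 (0.70) and the glucose transporter Slc2a3 (0.64), with r of 0.87, 0.68 and 0.66 after removal of the group means. Ccl3 had no difference beyond its spread between all irradiated samples and Nontreated, at 0.11 ± 0.38 (adjusted p = 0.901, limma). For Prf1 they were E2f1, a factor of the cell cycle (0.85), Il12rb1, a chain of the interleukin-12 receptor (0.77), and Atp7a, a copper transporter (0.75). For Nkg7 they were Havcr2, which encodes TIM-3 (0.90), Cdc16 (0.77) and Klrc1, which encodes NKG2A (0.77). Havcr2 followed Nkg7 within groups too, with r of 0.86 after removal of the group means.

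For Osm the nearest probes were Cd226, which encodes the activating receptor DNAM-1 (0.73), Rasgrp1 (0.70) and Ppp3cc (0.70). After removal of the group means r was -0.06, 0.39 and -0.04, so for Cd226 and Ppp3cc the likeness lay between groups. Cd226 was at 9.04, 9.30 and 9.28 in SRT, 9.23, 9.11 and 9.31 in CRT, 9.03, 9.27 and 9.23 in SRT-like, and 8.71, 8.72 and 8.32 in Nontreated (log2). All 9 irradiated samples lay above Nontreated, as for 4.66% of the panel. The Cd226 difference of 0.62 ± 0.14 passed (adjusted p = 0.0398, limma), in a contrast where 3.1% of the panel passed. Cd226 was picked for its likeness to Osm in the same samples, so its separation is not independent of that of Osm. Under T cell scaling 0 of 773 probes passed in this contrast, and under quantile normalization 2.

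**Figure D3:**
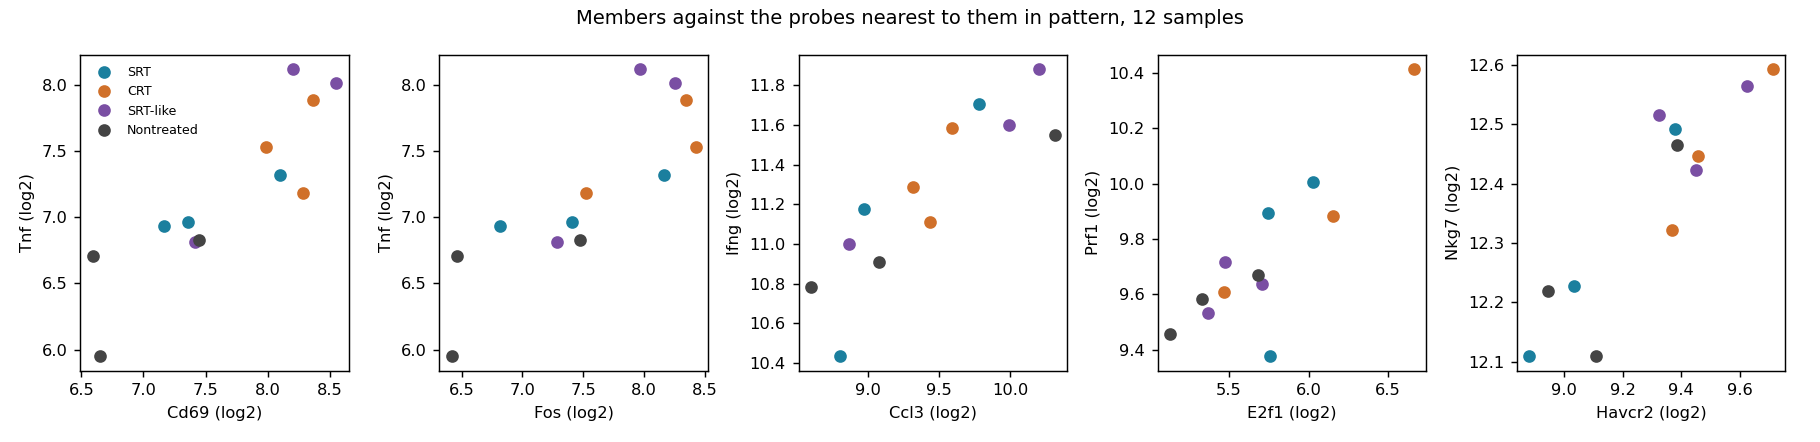
Log2 level of a gene against that of a probe with a like pattern, 1 point per sample, coloured by group, for Tnf with Cd69 and with Fos, Ifng with Ccl3, Prf1 with E2f1, and Nkg7 with Havcr2. Pearson's r over the 12 samples is 0.88, 0.85, 0.87, 0.85 and 0.90 in this order. The groups overlap in the level of Ifng, Prf1 and Nkg7, while for Tnf SRT and CRT lie above Nontreated and SRT-like overlaps it.

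Among themselves the 5 genes were related weakly. Over the 12 samples, the closest of the 10 pairs was Ifng with Tnf (Pearson r = 0.54, permutation p = 0.0713, adjusted over the 10 pairs 0.423; Spearman rho = 0.61, permutation p = 0.0393, adjusted 0.237). Without the 2 samples farthest from the median of Ifng, SRT replicate 2 and SRT-like replicate 2, r was 0.47. Prf1 and Nkg7, both of the granule, had r = 0.13. No pair passed after adjustment, with adjusted permutation p-values of 0.423 to 0.762 for Pearson's r and 0.237 to 0.974 for Spearman's rho.

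**Figure D4:**
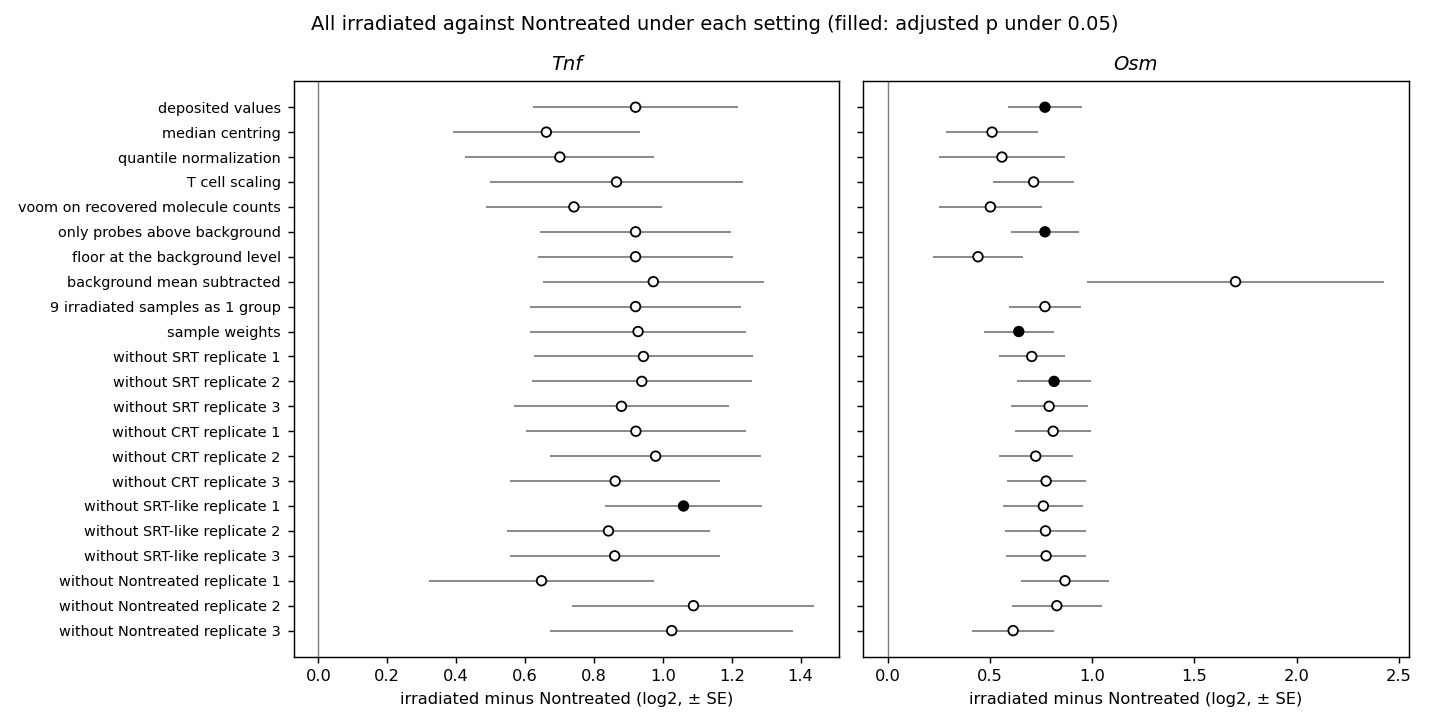
Log2 difference of Tnf and Osm, all irradiated minus Nontreated, with SE, in the fit as reported and under each other processing and each left-out sample. Filled points have an adjusted p under 0.05 (limma). All differences are above 0, between 0.65 and 1.09 for Tnf and between 0.44 and 1.70 for Osm, and few points are filled.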

How the data were processed

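The sorted cells, at 1000 to 5000 per microlitre of lysis buffer, were read on a NanoString nCounter panel, which counts barcoded probes without amplification. The table the authors deposited is on the log2 scale after normalization with ROSALIND, per the labels. Its version, background handling and reference probes are not stated there. Within each sample, 100% of values were whole multiples of 1 step (tolerance 0.05 steps), so molecule counts were recovered from them. Depth was 118694 to 467904 molecules, and counting intervals (95%, exact Poisson) cover counting error only.

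limma 3.58.1 (R 4.3.3; lmFit and eBayes, 4 group means) was fitted to all 773 probes without a filter, with Benjamini-Hochberg adjustment over them and a threshold of 0.05. It was also run on simulated data, with differences set only in probes of a higher mean level than Osm. No shift of the background was simulated, so that run does not bear on the Osm call. Pairs of genes used 100000 permutations, two-sided. Python 3.11.15, numpy 2.4.6, pandas 2.3.3 and scipy 1.17.1 were used elsewhere. Replicates were numbered in the order of the samples. Sample numbers 1 to 5, 6 to 9 and 10 to 12 were treated as runs, since Nontreated, SRT and CRT recur in the first 2. The labels call them neither batches nor days.

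The 5 genes and the lists were chosen with earlier results of these data known. The text names the 5 genes in every comparison, up to 4 genes per list by smallest p for all irradiated samples, any that passed, and the 3 probes most like each gene. Some genes that this rule takes are not reported here. Promoters came from RefSeq (GRCm38.p6), where 4 of 5 genes matched. The other processings tried were median centring, quantile normalization, scaling on 5 T cell probes, limma voom and a floor at background. Also tried were only probes above background, sample weights, the runs as a block and 1 group of 9 irradiated samples. Each comparison of single groups was also fitted with only the groups compared, and each sample was left out in turn. Background subtraction was chosen after seeing the data.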

Additional observations from a re-analysis of the deposited data

How the results depend on the processing

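Of 750 recomputed values, 688 kept their direction and their side of the threshold. For all irradiated samples, the count of the 5 genes that passed (1, Osm) was 0 under median centring, quantile normalization, T cell scaling, limma voom, a floor at background, background subtraction and 1 group of 9, and 0 to 1 with 1 sample left out; the Osm difference was then 0.51, 0.56, 0.71, 0.50, 0.44, 1.70 and 0.77 (adjusted p 0.307, 0.512, 0.173, 0.358, 0.334, 0.377 and 0.0530, limma), and 0.61 to 0.87 with 1 sample left out. For CRT the count of 0 was 1, Tnf, with the runs of sample numbers as a block. The direction turned in 26 values, none of them Tnf or Osm against Nontreated. Under median centring these were Ifng -0.25, Prf1 -0.085 and Nkg7 -0.26 in SRT, Ifng -0.076 and Nkg7 -0.13 in CRT, Prf1 -0.12 in SRT-like, and Ifng -0.030, Prf1 -0.044 and Nkg7 -0.11 in all irradiated samples, each against Nontreated. The median of all probes there was -0.04, against 0.22 as deposited. Under voom they were Ifng -0.10 and Nkg7 -0.12 in SRT, Nkg7 -0.015 in CRT, Prf1 -0.051 in SRT-like and Nkg7 -0.0014 in all irradiated. Under quantile normalization Prf1 in SRT-like was -0.061, Ifng in SRT minus CRT 0.029, Nkg7 in SRT-like minus CRT -0.040 and Osm in SRT-like minus SRT 0.12. Under T cell scaling Nkg7 in SRT was -0.0049, Prf1 in SRT-like -0.10, and in SRT-like minus CRT Tnf was -0.050, Osm -0.13 and Nkg7 -0.12. Sample weights gave Ifng -0.31 in SRT and Prf1 0.0080 in SRT-like minus SRT, and the floor gave Osm -0.12 in SRT-like minus CRT. Leaving out 1 sample turned 16 more. SRT minus CRT ranged over -0.52 to 0.11 for Ifng and -0.39 to 0.013 for Prf1, and SRT minus Nontreated over -0.28 to 0.36 for Ifng and -0.10 to 0.11 for Nkg7. SRT-like minus CRT ranged over -0.029 to 0.41 for Ifng, -0.12 to 0.53 for Tnf, -0.089 to 0.17 for Osm and -0.018 to 0.12 for Nkg7, and SRT-like minus SRT over -0.32 to 0.0092 for Osm. The cause was not tested. Over all probes, the 24 calls for CRT ranged from 0 to 62 and the 24 for all irradiated samples from 0 to 77, the 0 for SRT from 0 to 5 and the 5 for SRT-like from 0 to 15. No paired analysis was possible because no sample number is shared between groups. Depth limits Osm, at 7 to 51 molecules per sample.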
